A study of Mus musculus with 8 samples.

Results

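The genes of lung fluid clearance examined here move sodium, chloride and water across the epithelium of the air spaces, or control the channels that do so. There were 9 of them, chosen by name: the sodium channel subunits Scnn1a, Scnn1b and Scnn1g, the sodium pump subunit Atp1b1, the water channels Aqp1 and Aqp5, the chloride channel Cftr, the kinase Sgk1 and the ubiquitin ligase Nedd4. The choice was made with earlier results of these data known. The probe sets of the 9 genes were found through the gene symbols of the array annotation. Of the 9 genes, 5 (Sgk1, Atp1b1, Aqp1, Nedd4 and Cftr) had a probe set listed under their symbol. The signal of Scnn1a, Scnn1b, Scnn1g and Aqp5 was not analysed here. The 5 genes had 10 of the 12422 probe sets that remained without the 66 control probe sets, and 6 of the 10 were bright enough to be tested.

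Total RNA of mouse lungs was hybridised to 8 arrays, 2 in each of 4 groups, and the arrays of a group carry the letters a and b. Mice received oil or retinoic acid at 3 days of age and saline or dexamethasone on day 4, and the groups were named in the sample titles. Dex stands for oil then dexamethasone, RA for retinoic acid then saline, and RA-Dex for retinoic acid then dexamethasone. The labels do not define Dil. It was read as oil then saline, the 1 combination that the other names leave over. Dexamethasone is a synthetic glucocorticoid, and retinoic acid is the active form of vitamin A. Strain, doses and the interval to collection were not given in these sources. Nothing in the labels says whether the 2 arrays of a group came from separate animals, from pools or from 1 extract hybridised again. The p-values therefore measure the spread between these samples only, and that spread may be technical.

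Around birth the lung turns from secreting fluid to absorbing it. Sodium enters the epithelial cell through the apical epithelial sodium channel, whose subunits are Scnn1a, Scnn1b and Scnn1g, and is pumped out on the basal side by the sodium pump, and water follows through the tissue and through aquaporins. Glucocorticoids are a classical signal for this turn. Sgk1 is a kinase long known as a target gene of the glucocorticoid receptor, and it phosphorylates ubiquitin ligases of the Nedd4 family, which otherwise take the sodium channel off the membrane.

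The deposited values were signals on a linear scale, and each array had been scaled to a trimmed mean of 800.4 over its probe sets. On each array 23.3% to 25.7% of the probe sets lay at or under a signal of 85.3, the pooled 25th percentile, to which lower values were raised before log2 was taken. Correlations of log2 signal over the tested probe sets were 0.945 to 0.965 for arrays of 1 group and 0.913 to 0.942 for arrays with different day 4 treatments. Arrays of different groups with the same day 4 treatment had 0.938 to 0.964, nearly the range within a group. The surfactant gene Sftpc, which marks alveolar type II cells, read 61592 to 84336, and Ager, which marks alveolar type I cells, read 22068 to 29087. Signals of different probe sets depend on their probes, so changes are read within a probe set. Where brightness picks a probe set or an example gene below, it is no measure of RNA level across genes. Sums over the markers of a cell type follow their brightest probe sets, and they are compared between arrays only.

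Among the genes of fluid clearance, Sgk1 was higher after dexamethasone and passed the test. The 4 arrays with dexamethasone were compared with the 4 without it by limma's moderated test, and a call needed an adjusted p under 0.05 over all 7309 tested probe sets. Of the 6 tested probe sets of these genes, 1 was called higher and 0 lower. Of all tested probe sets 7.83% were called, 4.26% higher and 3.57% lower. In 4 of the 6 the arrays with dexamethasone did not overlap with the arrays without it, upward for Sgk1 and Atp1b1 and downward for Cftr and 1 of the probe sets of Nedd4, against 14.6% of all tested probe sets (6.80% upward and 7.78% downward). The same 4 had an unadjusted p under 0.05, against 21.3% of all. With each of the 5 genes taken by its brightest probe set, the median change was 0.27 on the log2 scale, which is the value of Aqp1. The values ran from -0.39 for Cftr to 0.61 for Sgk1, and the dimmer Nedd4 probe set (-0.71) was left out. The median of all tested probe sets was -0.03.

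**Figure D1:**
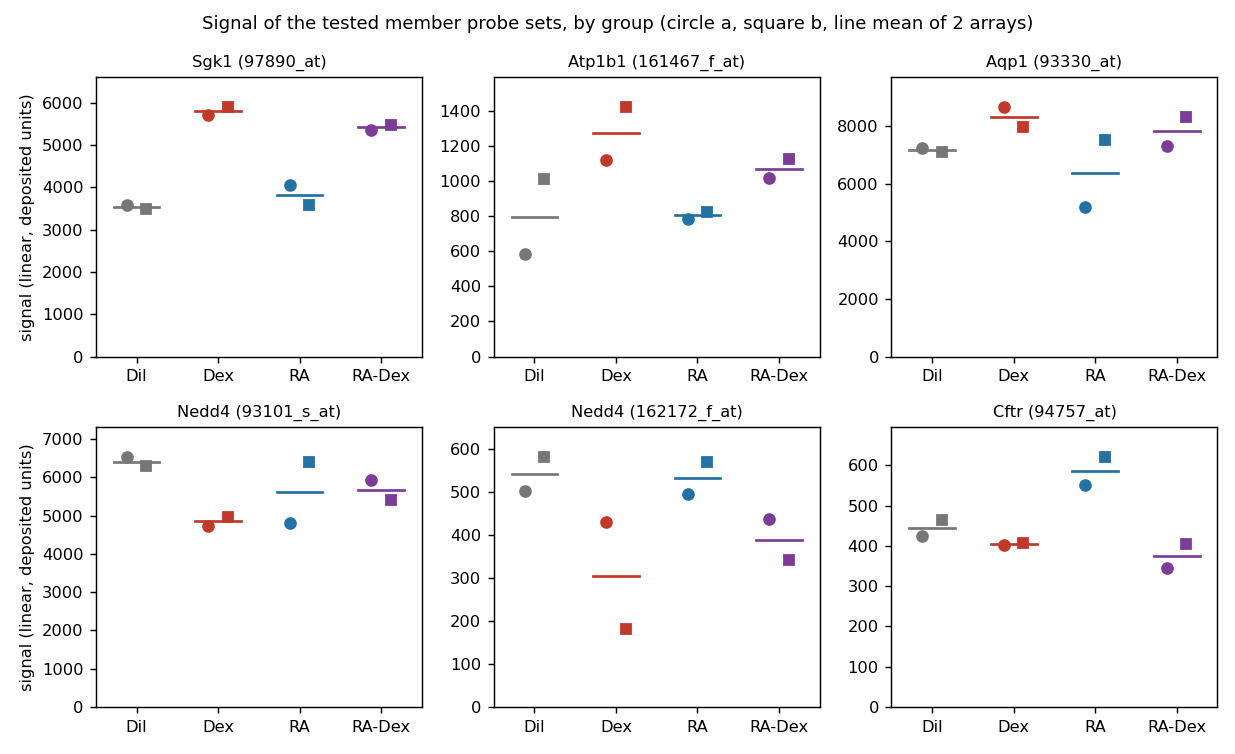
Deposited linear signal of the 6 tested probe sets in each array, with arrays a (circles) and b (squares) of each group side by side and a line at the mean of the 2 arrays. The 4 Sgk1 signals with dexamethasone lie at 5352 or more and the 4 without it at 4044 or less, while the Aqp1 groups overlap.

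Sgk1 was measured by 1 probe set. Its signal was 3573 and 3494 in the Dil arrays, 5715 and 5894 in the Dex arrays, 4044 and 3580 in the RA arrays, and 5352 and 5478 in the RA-Dex arrays. The groups with dexamethasone were high and those without it low, with no overlap and with the arrays of each group close to each other. Averaged over the day 3 treatment, Sgk1 rose 1.53-fold with dexamethasone (log2 fold change 0.61 ± 0.0955 SE, 95% interval 0.40 to 0.82, n = 4 against 4, adjusted p = 0.00256), and it ranked 162 of the 7309 by p. Under each of 15 other settings of the processing, each single array left out among them, the change stayed called, with log2 fold changes of 0.57 to 0.66. A fit without both Dil arrays was chosen after the data were seen, and its dexamethasone contrast is RA-Dex against RA only, 2 arrays against 2. In that fit Sgk1 was not called (log2 0.51, adjusted p = 0.082). In whole lung, a change in the number of cells of a type and a change in their RNA cannot be told apart.

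RefSeq lists 6 starts for Sgk1 on chromosome 10 of the mouse assembly GRCm38.p6. The glucocorticoid receptor binds a palindrome of paired hexamers, searched here as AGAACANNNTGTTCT (its own reverse complement), in the 250 bases before each start. The window of start 5, chr10:21993640-21993889 on the plus strand, held it, and is shown because Sgk1 is the gene of this set that passed. Capitals mark the hexamer AGAACA or its reverse complement TGTTCT. The window of start 6, chr10:21994416-21994665 on the plus strand, is the next downstream and held neither form. Both read 5′ to 3′ and end at the base before the start.

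Sgk1 start 5: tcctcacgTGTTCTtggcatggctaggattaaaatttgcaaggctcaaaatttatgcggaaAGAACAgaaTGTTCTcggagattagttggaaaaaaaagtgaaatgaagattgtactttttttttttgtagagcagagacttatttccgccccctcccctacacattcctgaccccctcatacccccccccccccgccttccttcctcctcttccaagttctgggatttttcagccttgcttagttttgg
Sgk1 start 6: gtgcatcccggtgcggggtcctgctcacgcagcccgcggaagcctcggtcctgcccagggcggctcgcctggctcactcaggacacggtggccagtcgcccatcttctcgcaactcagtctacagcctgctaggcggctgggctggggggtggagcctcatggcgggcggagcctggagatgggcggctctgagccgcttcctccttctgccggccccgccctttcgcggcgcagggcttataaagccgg

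The palindrome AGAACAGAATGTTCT lay at chr10:21993701-21993715, which is 189 to 175 bases before start 5 and 965 to 951 bases before start 6. It was found in 3 of 32851 RefSeq windows of this length (0.00913%), those of Sgk1, Acnat2 and Gm35041, and only Sgk1 of these has a probe set listed here. The hexamer on either strand, which the palindrome contains on both, was in 16.1% of all windows and in 3 of the 6 of Sgk1. Among the other members it was in 1 of the 2 windows of Nedd4 and in 0 of the single windows of Atp1b1, Aqp1, Aqp5, Cftr, Scnn1b and Scnn1g. Among genes of the wider pathway that rose with dexamethasone, described below, it was in 0 of the single windows of Usp2, Hsd11b1, Clca3a1 and Kcnk1. It was also in 0 of the 2 windows of Clcn3. Scnn1a, Nedd4l and Car2 had no window to search. The hexamer bound by retinoic acid receptors, searched as AGGTCA on both strands, was in 14% of all windows, in 2 of the 6 of Sgk1 and in that of Scnn1b. A match is a description of letters, and binding was not measured.

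Within each day 3 treatment the Sgk1 difference had the same direction. Dex exceeded Dil 1.64-fold (log2 0.72 ± 0.135 SE, n = 2 against 2, adjusted p = 0.0162), and this was the 1 call among the 6 tested probe sets of these genes, against 3.23% of all tested probe sets called. In this contrast 4 of the 6 had an unadjusted p under 0.05, against 14.9% of all. After retinoic acid the fold was 1.42 (log2 0.51 ± 0.135 SE, n = 2 against 2, adjusted p = 0.0724), which did not pass. In RA-Dex against RA, 0 of the 6 probe sets were called by limma and 2 had an unadjusted p under 0.05, against 3.50% and 15.8% of all. The difference of the 2 effects of dexamethasone on Sgk1, tested as an interaction, was -0.21 ± 0.191 SE on the log2 scale (95% interval -0.63 to 0.21, adjusted p = 0.929).

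The single contrast of Dex with Dil rested on few arrays. Without Dil a its adjusted p was 0.0578, without Dil b 0.0899, without Dex a 0.12 and without Dex b 0.143, each time with a log2 fold change of 0.69 to 0.74. With no intensity trend in the fit it was 0.0904. RA-Dex against Dil gave a log2 fold change of 0.62 ± 0.135 SE for Sgk1 (n = 2 against 2, adjusted p = 0.0297), the 1 call and the 1 unadjusted p under 0.05 among the 6. Of all tested probe sets 4.01% were called and 16.2% had an unadjusted p under 0.05. The adjusted p of Sgk1 was 0.0681 to 0.197 without Dil a, Dil b, Dex a, Dex b, RA-Dex a or RA-Dex b.

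No retinoic acid effect on Sgk1 was detectable with these arrays. Over both day 4 treatments, the Sgk1 difference with retinoic acid was 0.0034 ± 0.0955 SE on the log2 scale (95% interval -0.21 to 0.21, n = 4 against 4, adjusted p = 0.998). By limma, 0 of the 6 tested probe sets of these genes were called for retinoic acid, and 0 had an unadjusted p under 0.05, against 0.150% and 6.29% of all tested probe sets. The adjusted p-values of the 6 were 0.941 to 0.998. RA against Dil, RA-Dex against Dex and the interaction gave 0 calls and 0 unadjusted p-values under 0.05 among the 6 as well, where 0.0274%, 0.0958% and 0.0137% of all tested probe sets were called and 7.99%, 4.13% and 5.60% had an unadjusted p under 0.05.

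**Figure D2:**
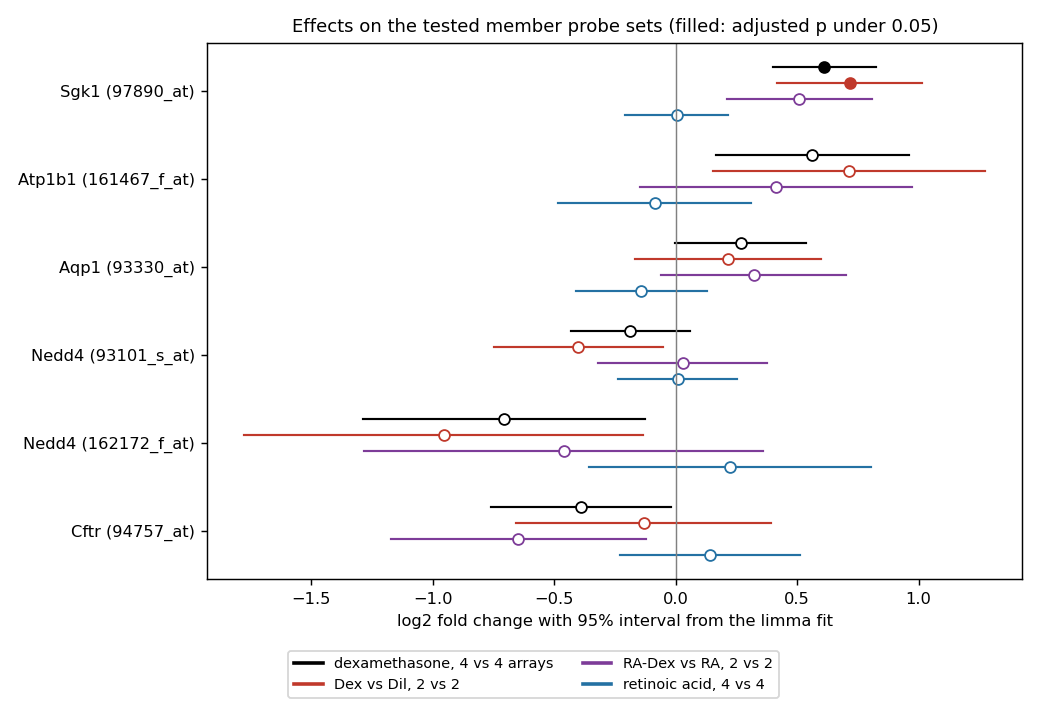
Log2 fold change (x axis) with its 95% interval from the limma fit for the 6 tested probe sets, in 4 contrasts; filled points had an adjusted p under 0.05. The 2 filled points are those of Sgk1 for dexamethasone on average and for Dex against Dil, and the interval of Sgk1 for retinoic acid runs from -0.21 to 0.21.

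By the rule set for likeness, the 3 genes whose log2 signal over the 8 arrays was most correlated with that of Sgk1 were Gas1 (Pearson r = 0.984), a membrane protein of growth arrest, Igfbp3 (r = 0.983), a carrier of insulin-like growth factors, and Map3k6 (r = 0.982), a protein kinase. These correlations are over arrays of 4 treatment groups, so they follow the group means, and they are given as a description. Gas1 read 1076 to 1325 without dexamethasone and 2364 to 2750 with it. Igfbp3 read 286 to 397 without dexamethasone and 3321 to 3697 with it, a wider step than that of Sgk1 on the log2 scale.

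**Figure D3:**
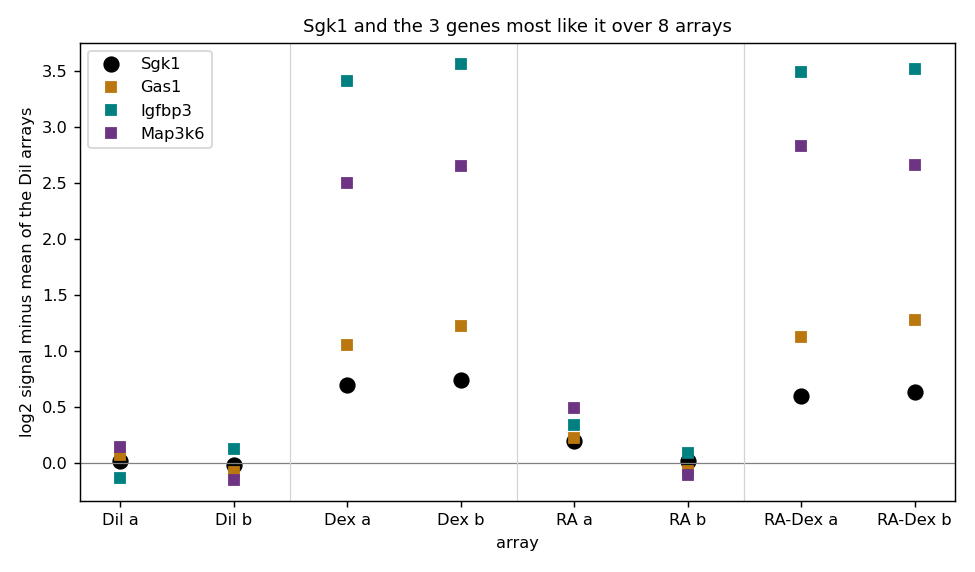
Log2 signal of Sgk1 (circles) and of the 3 genes most correlated with it (squares) on each of the 8 arrays, minus the mean of the Dil arrays for that gene. All 4 genes stand higher on the 4 arrays with dexamethasone than on the other 4, with the widest step for Igfbp3 and the narrowest for Sgk1.

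Atp1b1 encodes a beta subunit of the sodium pump, which helps the pump reach the membrane. Its tested probe set read 587 and 1010 in the Dil arrays, 1122 and 1423 in the Dex arrays, 786 and 825 in the RA arrays, and 1020 and 1125 in the RA-Dex arrays. All arrays with dexamethasone were above all without it, and the gap from Dil b to RA-Dex a was narrow. The difference was 1.48-fold (log2 0.56 ± 0.18 SE, 95% interval 0.17 to 0.96, n = 4 against 4, adjusted p = 0.0872) and did not pass. Without 1 array in turn its log2 fold change ran from 0.37 to 0.76, the highest without Dil b. Dex against Dil gave a log2 fold change of 0.71 (adjusted p = 0.198) and RA-Dex against RA 0.41 (adjusted p = 0.486).

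The other probe set of Atp1b1 was below the filter, with 4 of the 8 arrays at the floor. It read 35.3 and 41.2 in the Dil arrays, 228 and 49.3 in the Dex arrays, 154 and 193 in the RA arrays, and 117 and 33.8 in the RA-Dex arrays. The groups overlapped and the arrays of Dex and of RA-Dex were far apart. The mean over both probe sets turned the direction of Atp1b1 in RA-Dex against RA (log2 -0.19).

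The ligase Nedd4, which marks membrane proteins for removal, was measured by a bright and a dim probe set. The bright one read 6521 and 6297 in the Dil arrays, 4736 and 4968 in the Dex arrays, 4805 and 6409 in the RA arrays, and 5929 and 5403 in the RA-Dex arrays. The Dex arrays lay under both Dil arrays, and the RA arrays spanned most of the range. Dex against Dil was -0.40 ± 0.158 SE on the log2 scale (n = 2 against 2, adjusted p = 0.253), and RA-Dex against RA was 0.03 ± 0.158 SE (adjusted p = 0.96). On average the difference with dexamethasone was -0.19 ± 0.112 SE (95% interval -0.43 to 0.06, adjusted p = 0.386), and the interaction of 0.43 ± 0.223 SE did not pass (adjusted p = 0.898).

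The dim probe set of Nedd4 read 503 and 580 in the Dil arrays, 429 and 181 in the Dex arrays, 495 and 570 in the RA arrays, and 437 and 341 in the RA-Dex arrays. All arrays with dexamethasone were under all without it, and Dex b was the lowest by far. The difference of -0.71 ± 0.263 SE on the log2 scale (95% interval -1.29 to -0.13, n = 4 against 4, adjusted p = 0.142) did not pass. Without 1 array in turn it ran from -1.02, without Dex a, to -0.40. Over the 8 arrays the log2 signals of the 2 Nedd4 probe sets had a Pearson r of 0.528, as a description.

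Aqp1 is a water channel of endothelium and of other barriers with fast water flow. Its tested probe set read 7232 and 7095 in the Dil arrays, 8666 and 7972 in the Dex arrays, 5208 and 7512 in the RA arrays, and 7323 and 8334 in the RA-Dex arrays. RA a was the lowest array, and the arrays with and without dexamethasone overlapped. The difference with dexamethasone was 0.27 ± 0.122 SE on the log2 scale (95% interval -0.0023 to 0.54, n = 4 against 4, adjusted p = 0.237) and did not pass. Without 1 array in turn it ran from 0.14 to 0.40, the highest without RA b. The endothelial markers, of which all 9 listed had a probe set, summed to 33429 to 34424 in the 4 arrays without dexamethasone and to 28417 to 34933 in the 4 with it. Of the 9, 1 was called lower with dexamethasone and 0 higher, where 3.57% and 4.26% of all tested probe sets were. The median of these markers was -0.15 on the log2 scale, against -0.03 for all, and their part in the Aqp1 values was not tested. The other probe set of Aqp1 was below the filter, with 5 arrays at the floor and signals of 33.4 to 334.

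Cftr is the chloride channel through which airway and fetal lung epithelium secrete chloride and, with it, fluid. Its tested probe set read 424 and 464 in the Dil arrays, 403 and 407 in the Dex arrays, 552 and 620 in the RA arrays, and 344 and 406 in the RA-Dex arrays. The RA arrays were the highest, and all arrays with dexamethasone were under all without it. The difference with dexamethasone was -0.39 ± 0.168 SE on the log2 scale (95% interval -0.76 to -0.02, n = 4 against 4, adjusted p = 0.208) and did not pass. RA-Dex against RA gave -0.65 ± 0.238 SE (adjusted p = 0.201), Dex against Dil -0.13 (adjusted p = 0.869), RA against Dil 0.40 (adjusted p = 0.726), and the interaction -0.52 (adjusted p = 0.898). The other probe sets of Cftr read 2.06 to 39.7 and 4.68 to 62.4 and were at the floor on all 8 arrays, so they gave no value to compare.

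Markers of epithelial cell types were set beside these values. The 5 alveolar type I markers with a probe set, of 7 listed, summed to 49122 to 61187 without dexamethasone and 60297 to 67979 with it, and 2 of the 5 rose with dexamethasone: Hopx, a homeodomain protein (log2 0.62, adjusted p = 0.00207), and Pdpn, a membrane glycoprotein (log2 1.15, adjusted p = 0.0097). The 6 type II markers with a probe set, of 9 listed, summed to 119038 to 149639 without dexamethasone and 130187 to 149806 with it, and of the 5 tested 1 fell: Lpcat1, an enzyme of surfactant lipid synthesis (log2 -0.70, adjusted p = 0.00283). The 5 airway markers with a probe set, of 6 listed, summed to 53154 to 67013 without dexamethasone and 56323 to 69898 with it, and of the 4 tested 1 rose: the cytochrome P450 gene Cyp4b1 (log2 0.67, adjusted p = 0.00136). Of all tested probe sets 4.26% rose with dexamethasone and 3.57% fell. None of the markers of these 3 lists was at the floor on every array. The part of these cell types in the Sgk1 difference was not tested. The 9 markers of skeletal muscle summed to 2896 and 3905 in the Dil arrays and to 1062 to 1893 in the other 6. The 8 of squamous epithelium summed to 5461 and 9511 against 2386 to 4162. Of each of these 2 lists only 3 markers were tested, and 0 were called for dexamethasone on average, against 7.83% of all tested probe sets. Much of the Dil sums came from Acta1 (2198 in Dil a and 1314 in Dil b) and Krt4 (4680 and 2553).

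The wider pathway was read from 5 lists with 108 genes, of which 73 had a probe set and 53 were tested, each by its brightest probe set. The lists were chosen with earlier results of these data known, so their shares of calls are a description. The share of all covers every tested probe set, not the brightest of each gene. With dexamethasone on average 6 of the 53 rose and 1 fell, 13.2% against 7.83% of all tested probe sets. Dex against Dil had 4 higher and 0 lower, 7.55% against 3.23% of all, and RA-Dex against RA had 2 higher and 0 lower, 3.77% against 3.50% of all. For retinoic acid on average limma called 0 of the 53, and 3 had an unadjusted p under 0.05, against 0.150% and 6.29% of all. With no filter on dim probe sets, which raises the number tested to 12422, the dexamethasone calls of Nedd4l, Usp2, Hsd11b1, Kcnk1 and Clcn3 ended (adjusted p 0.0837 to 0.179). Without both Dil arrays, where the dexamethasone contrast is RA-Dex against RA only, Clca3a1 and Usp2 stayed called.

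Of 23 genes that control the sodium channel 13 were tested, of which 3 rose with dexamethasone, 0 fell and 10 did not pass, where 4.26% of all tested probe sets rose and 3.57% fell. The median was 0.24 on the log2 scale against -0.03 for all. Nedd4l, the ligase closest to Nedd4 and a known substrate of Sgk1, read 1720 and 1952 in the Dil arrays, 3101 and 4234 in the Dex arrays, 1908 and 2570 in the RA arrays, and 3641 and 3334 in the RA-Dex arrays. The arrays with dexamethasone were all above the others, and Nedd4l rose 1.76-fold (log2 0.82 ± 0.141 SE, n = 4 against 4, adjusted p = 0.00492). Its other probe set also rose (log2 0.59 ± 0.147 SE, adjusted p = 0.0351), a call that held without Dex a and ended without any other single array (adjusted p 0.0585 to 0.146).

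Usp2, a deubiquitinating enzyme that counters Nedd4-type ligases at the sodium channel, read 513 and 298 in the Dil arrays, 741 and 558 in the Dex arrays, 263 and 306 in the RA arrays, and 1009 and 614 in the RA-Dex arrays. No array with dexamethasone was as low as any without it, though the arrays of RA-Dex lay far apart. Usp2 rose 2.14-fold (log2 1.10 ± 0.234 SE, n = 4 against 4, adjusted p = 0.0157), a call that ended without Dex a (adjusted p = 0.0699) or RA-Dex a (adjusted p = 0.0771). The dimmer Usp2 probe set did not pass (log2 0.43, adjusted p = 0.288). Hsd11b1, the enzyme that regenerates active glucocorticoid inside cells, read 1201 and 1595 in the Dil arrays, 2213 and 1973 in the Dex arrays, 1394 and 1827 in the RA arrays, and 2449 and 2574 in the RA-Dex arrays. Its groups did not overlap and it rose 1.54-fold (log2 0.62 ± 0.139 SE, n = 4 against 4, adjusted p = 0.0197), but its adjusted p was 0.0507 to 0.0867 without Dil a, Dex a, Dex b, RA a, RA-Dex a or RA-Dex b. The brightest of this list that did not pass were Ywhaz and Ywhaq, proteins of the 14-3-3 family, at 3692 to 11514 and 7852 to 9450, and Rab11a, a protein of membrane recycling, at 3057 to 4069. The glucocorticoid receptor Nr3c1 (45.8 to 143) and its target Tsc22d3 (68.3 to 327) were below the filter.

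Of 44 genes of chloride, potassium and bicarbonate transport 24 were tested, of which 3 rose with dexamethasone, 1 fell and 20 did not pass, where 4.26% of all tested probe sets rose and 3.57% fell. The median was 0.06 on the log2 scale against -0.03 for all. Clca3a1, of a family of secreted and membrane proteins that modulate calcium-activated chloride current, read 207 and 232 in the Dil arrays, 1232 and 1078 in the Dex arrays, 231 and 236 in the RA arrays, and 755 and 909 in the RA-Dex arrays. The groups were far apart and Clca3a1 rose 4.32-fold (log2 2.11 ± 0.166 SE, n = 4 against 4, adjusted p = 2.62e-05). It also passed in Dex against Dil (log2 2.40, adjusted p = 0.000311) and in RA-Dex against RA (log2 1.83, adjusted p = 0.00166).

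Kcnk1, a potassium channel of the family with paired pore domains, read 848 and 457 in the Dil arrays, 1820 and 1726 in the Dex arrays, 1090 and 715 in the RA arrays, and 1373 and 2051 in the RA-Dex arrays. Its groups did not overlap and it rose 2.33-fold (log2 1.22 ± 0.221 SE, n = 4 against 4, adjusted p = 0.00635). Clcn3, a chloride and proton exchanger of vesicles, read 822 and 626 in the Dil arrays, 1287 and 1531 in the Dex arrays, 1323 and 1001 in the RA arrays, and 1205 and 1430 in the RA-Dex arrays. Its Dil arrays were the low ones, and RA a exceeded Dex a and RA-Dex a. By limma, Dex against Dil gave a log2 fold change of 0.97 ± 0.219 SE (n = 2 against 2, adjusted p = 0.0383). RA against Dil gave 0.68 (adjusted p = 0.457), and RA-Dex against RA gave 0.19 (adjusted p = 0.746). The interaction of -0.78 ± 0.31 SE did not pass (adjusted p = 0.858). Clcn3 rose 1.49-fold (log2 0.58 ± 0.155 SE, n = 4 against 4, adjusted p = 0.0451), a call that ended without Dil b, Dex a, Dex b, RA b, RA-Dex a or RA-Dex b (adjusted p 0.0774 to 0.176), and 2 other probe sets of Clcn3 did not pass (adjusted p = 0.324 and 0.55).

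Car2, the cytosolic carbonic anhydrase that supplies bicarbonate and protons, read 9969 and 10503 in the Dil arrays, 7331 and 7123 in the Dex arrays, 6743 and 6846 in the RA arrays, and 6031 and 6181 in the RA-Dex arrays. The Dil arrays were high, and all arrays with retinoic acid were under all without it. With retinoic acid on average Car2 differed by -0.42 ± 0.0862 SE on the log2 scale (n = 4 against 4, adjusted p = 0.165 by limma). RA against Dil gave -0.59 ± 0.122 SE (n = 2 against 2, adjusted p = 0.178), and neither passed. The RA arrays lay among the lower ones, so the arrays with and without dexamethasone overlapped. Car2 fell to 0.797 of its level (log2 -0.33 ± 0.0862 SE, n = 4 against 4, adjusted p = 0.042), a call that ended without any 1 of the 8 arrays (adjusted p 0.0606 to 0.159). RA-Dex against Dil had the larger difference for Car2 (log2 -0.75 ± 0.122 SE, n = 2 against 2, adjusted p = 0.00604), with an adjusted p of 0.0646 without RA-Dex a and 0.0657 without RA-Dex b. The brightest of this list that did not pass were the phosphate transporter Slc34a2 at 12182 to 16194 and the channel proteins Clic4 at 10218 to 13364 and Clic3 at 2859 to 4301.

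**Figure D4:**
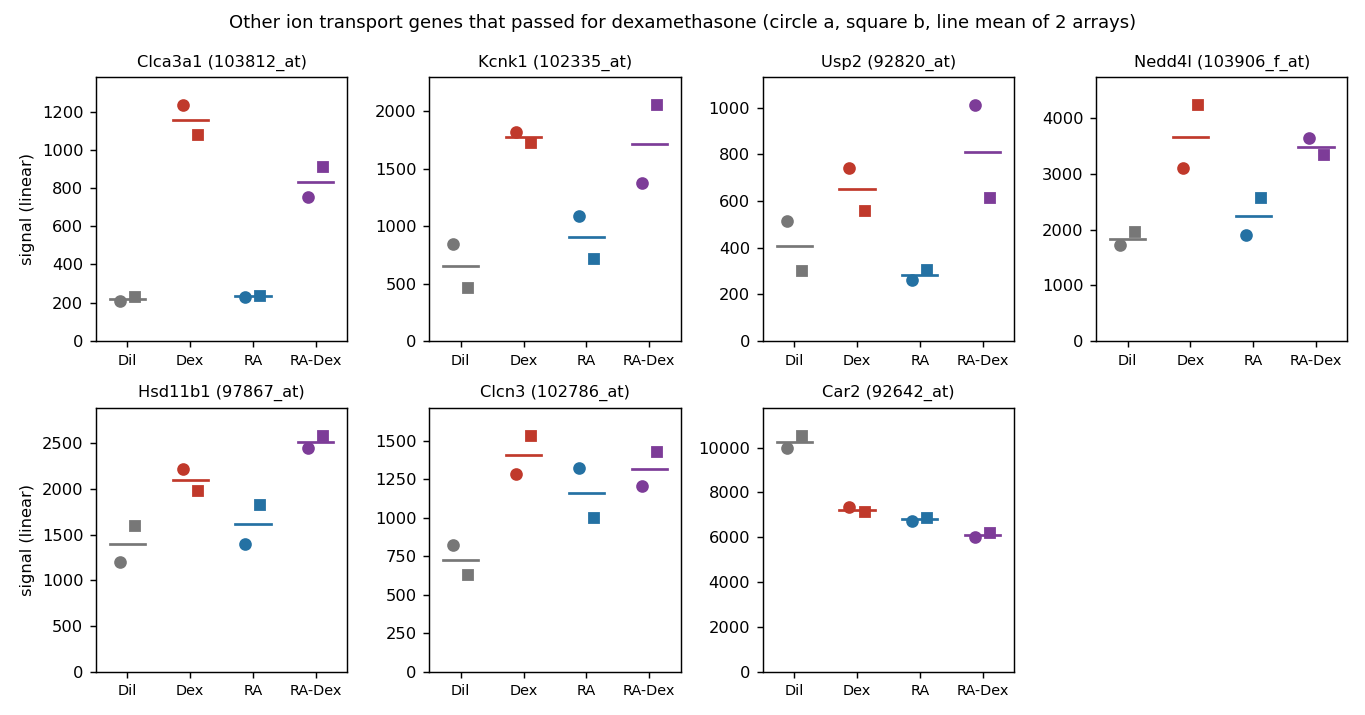
Deposited linear signal by array and group for the 7 genes of the wider pathway that passed for dexamethasone on average, with arrays a as circles, arrays b as squares and a line at the mean of the 2 arrays. In 5 of the 7 the arrays with dexamethasone lie above all others, and in Clcn3 and Car2 they overlap with the RA arrays.

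Of 14 other sodium pump genes 4 were tested, and by limma 0 were called for dexamethasone. Of the 4, 1 had an unadjusted p under 0.05, and their median was -0.19 on the log2 scale. Of all tested probe sets 7.83% were called and 21.3% had an unadjusted p under 0.05, with a median of -0.03. Atp1b3, the other tested beta subunit, read 8042 and 9143 in the Dil arrays, 7346 and 7548 in the Dex arrays, 10539 and 8531 in the RA arrays, and 6816 and 6678 in the RA-Dex arrays. Its arrays with dexamethasone were all below the others, opposite in direction to those of Atp1b1, and the difference did not pass (log2 -0.35 ± 0.101 SE, n = 4 against 4, adjusted p = 0.063). It passed after quantile normalization (adjusted p = 0.0316) and with the stricter filter (adjusted p = 0.0484). Without 1 array in turn its log2 fold change ran from -0.42, without RA b, to -0.27. The pump regulators Fxyd1 and Fxyd5 read 1963 to 2798 and 1009 to 1351 and did not pass.

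Of 10 other aquaporins 2 were tested and 0 were called by limma for dexamethasone, with 0 unadjusted p-values under 0.05. The shares of all tested probe sets were 7.83% and 21.3%. Aqp4, a water channel of the basal membrane of airway epithelium, read 243 and 233 in the Dil arrays, 143 and 218 in the Dex arrays, 431 and 330 in the RA arrays, and 245 and 232 in the RA-Dex arrays. Its RA arrays were the highest, and the arrays with and without dexamethasone overlapped. Of 17 genes of beta-adrenergic and cAMP signalling, which drives sodium uptake acutely, 10 were tested and 0 were called for dexamethasone, against 7.83% of all. Among the 10 genes, 1 had an unadjusted p under 0.05, against 21.3% of all, and their median was 0.02, against -0.03. The brightest of them were the G protein subunit Gnas at 35120 to 44406 and the protein kinase A subunits Prkar1a at 6505 to 8560 and Prkacb at 2775 to 3293.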

How the data were processed

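The deposited intensity signals, on a linear scale and 1 per probe set and array, had been scaled by the authors to a common trimmed mean, as the values themselves show. No source used here names the software that did this. Symbols came from the platform annotation of 2016, in which 10833 probe sets had 1 symbol, 396 several and 1193 none. Signals were floored at the pooled 25th percentile (85.3), and 7309 probe sets with a mean log2 above the pooled 40th percentile (200.8) were tested. limma 3.58.1 in R 4.3.3 fitted 1 mean per group over all 8 arrays (4 residual and 6.69 prior degrees of freedom), with eBayes and an intensity trend, two-sided, for 8 contrasts. The Benjamini-Hochberg adjustment ran over all tested probe sets of a contrast, and the fit was checked on simulated data. With 2 arrays per group, their number limits the precision.

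The members and lists were chosen with earlier results of these data known. Named were every member probe set, every listed gene called in any contrast, up to 3 of the brightest others per list, and the 3 genes most correlated with a called member. Arrays sharing a letter did not deviate together in every pair of groups (correlations of a minus b from -0.221 to 0.136), so the letters were not used as pairs. Alternatives were quantile normalization, no filter or a stricter filter at the 60th percentile, a pseudocount of 100, eBayes without the trend or robust, the letter as a block, the mean of a gene's probe sets, and leaving out each array in turn. Promoter windows came from RefSeq.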

Additional observations from a re-analysis of the deposited data

How the results depend on the processing

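With 2 arrays per group, calls that rest on 2 arrays against 2 had little margin. The setting without both Dil arrays leaves RA-Dex against RA, 2 arrays against 2, as its dexamethasone contrast. Only a result called in the fit of the report could lose a call. Many of the values counted next as unchanged belong to results that were uncalled there, so their number is not a rate at which calls held. Of 1012 values under alternatives, for 65 probe set results, 891 kept their direction and their side of the threshold, 99 lost and 10 gained a call, and 12 changed direction. The member count for dexamethasone on average, 1 in the fit of the report, was 1 to 2 without 1 array in turn, and 0 without both Dil arrays, a setting chosen after the data were seen. The counts for Dex against Dil and for RA-Dex against Dil, 1 each, were 0 with no intensity trend and 0 to 1 without 1 array. The replicate block moved the count for RA-Dex against Dil to 0 (Sgk1 adjusted p = 0.0672), and Sgk1 for dexamethasone on average had an adjusted p of 0.00834 with it. The block also ended the dexamethasone calls of Clcn3 (adjusted p = 0.0745), Car2 (0.0888) and the second Nedd4l probe set (0.0627), and that of Clcn3 in Dex against Dil (0.0696). The pathway count for dexamethasone, 7, was 2 with no filter, 4 with no intensity trend, 5 with the replicate block, 3 to 6 without 1 array and 2 without both Dil arrays. That for Dex against Dil, 4, was 2 with no filter, 1 with no intensity trend, 3 with the replicate block and 1 to 5 without 1 array. That for RA-Dex against RA, 2, was 1 with no filter, 0 with the stricter filter, 1 with no intensity trend, 2 with the replicate block and 1 to 2 without 1 array. Uncalled values changed direction as follows (log2). Sgk1 for retinoic acid was -0.013 after quantile normalization and -0.040 to 0.047 without 1 array. Atp1b1 in RA-Dex against RA was -0.19 as the mean of its probe sets. The brighter Nedd4 probe set was 0.028 for dexamethasone without both Dil arrays, and in RA-Dex against RA -0.046 after quantile normalization, -0.22 as the mean of its probe sets and -0.18 to 0.24 without 1 array. Clcn3 in RA-Dex against RA was -0.011 to 0.39 without 1 array. Over all tested probe sets, the count for dexamethasone, 572, was 349 of 12422 with no filter and 309 without RA-Dex b. It was 406 with no intensity trend and 454 with the replicate block. The count of all for Dex against Dil, 236, was 96 of 12422 with no filter, 112 with no intensity trend and 171 with the replicate block. That of all for RA-Dex against RA, 256, was 143 of 12422, 126 and 186, and with the stricter filter 275 of 4908. For RA-Dex against Dil, 293 of all became 165 with no intensity trend and 195 with the replicate block. The causes were not tested.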

Other observations

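Transporter families outside the lists were read by symbol prefix, a choice made after the values were seen. Of 177 tested probe sets of these families 9 rose with dexamethasone on average and 1 fell, 5.65% against 7.83% of all tested probe sets. Slc10a6, a carrier of sulfated steroids, read 282 and 407 in the Dil arrays, 1834 and 1927 in the Dex arrays, 548 and 582 in the RA arrays, and 2154 and 1822 in the RA-Dex arrays, and rose 4.41-fold (log2 2.14 ± 0.152 SE, n = 4 against 4, adjusted p = 1.24e-05 by limma). Its arrays with dexamethasone were all above the others. Abca1, which exports cholesterol, rose 2.45-fold (adjusted p = 0.00156), Slc31a1, a copper importer, 2.07-fold (adjusted p = 0.00057), and Slc15a2, a peptide carrier, 1.78-fold (adjusted p = 0.00643). Abcg2, an efflux pump of stem and barrier cells, rose 1.91-fold (adjusted p = 0.0098), a call that ended without RA-Dex b (adjusted p = 0.0573). Slc8a1, the sodium and calcium exchanger of heart muscle, read 898 and 707 in the Dil arrays, 385 and 432 in the Dex arrays, 686 and 899 in the RA arrays, and 309 and 447 in the RA-Dex arrays, and fell to 0.492 of its level (log2 -1.02 ± 0.185 SE, adjusted p = 0.00632). With no filter on dim probe sets Abca1, Slc15a2, Abcg2 and Slc8a1 did not pass (adjusted p 0.0673 to 0.115). Without both Dil arrays, where the dexamethasone contrast is RA-Dex against RA only, Slc15a2 (adjusted p = 0.0755) and Slc8a1 (adjusted p = 0.0604) did not pass. The 7 heart markers summed to 21670 and 23011 in the Dil arrays, 14655 and 15369 in the Dex arrays, 18301 and 18361 in the RA arrays, and 19010 and 18488 in the RA-Dex arrays, and their part in the Slc8a1 values was not tested.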
